A study of Cochliomyia hominivorax with 18 samples.

Results

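The transcripts described here were far more abundant in the midgut of control adults than in that of control larvae of the New World screwworm, Cochliomyia hominivorax, and their genes bear consecutive numbers in the annotation. They were chosen by their CPM, the count of a transcript scaled to a library total of 1000000 counts. A candidate was the first listed transcript (ending in .t1) of a gene, with a mean of at least 5 CPM in the 3 adult control libraries and a ratio of at least 16 between adult and larval control means after 0.1 CPM was added to each. A member was a candidate whose gene number plus or minus 1 was also a candidate. The rule found 353 candidates, which is 5.0% of the 7055 first transcripts at or above 5 CPM in adult controls, and 110 of them (31.2%) were members. The table lists 22420 transcripts of 21161 gene numbers in all. The difference between control adults and control larvae was therefore used to choose the members. It is given only as a description, as are comparisons with the adult controls.

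The series profiled midgut RNA of production flies, larval and adult, before (control), during (on-Tc) and after (post-Tc) tetracycline rearing. Tetracycline inhibits bacterial ribosomes and is fed to insect strains to keep conditional transgenes silent. Its title concerns long-term effects on gut physiology and the microbiome. There are 6 groups of 3 libraries, namely adult control, adult on-Tc, adult post-Tc, larva control, larva on-Tc and larva post-Tc, and all came from midguts. The labels give no strain, genotype, sex, age, tetracycline dose or time since withdrawal, and they do not tell how the libraries of a group were taken. The p-values below therefore cover only the spread from library to library, which may be technical. Since controls were taken first and post-Tc flies last, treatment state and date of sampling cannot be told apart. Library totals ran from 19158409 counts (adult control 3) to 79783813 (adult on-Tc 1).

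The midgut of a fly is the part of the gut that secretes digestive enzymes and takes up nutrients. At metamorphosis the larval midgut epithelium is lost and an adult one is built in its place, and the stages of this species feed differently, the larvae on living tissue of warm-blooded hosts and the adults mainly on liquids. In fly genomes, genes of a family that arose by local duplication often lie side by side, and such neighbours may be expressed in the same tissue and stage. These are general facts. The deposited IDs consist of numbers for gene and transcript and carry neither names nor positions, so no role is given to any member, the labelled tissue could not be checked against marker genes, and neighbouring numbers are not known here to be neighbouring genes on a chromosome. Transcripts are named below by gene number, since each is the .t1 transcript of its gene and no member gene has another listed transcript.

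The 110 members formed 45 runs of consecutive gene numbers. There were 34 runs of 2 members, 6 of 3, 4 of 4 and 1 of 8, and the 11 runs of 3 or more held 42 members. The longest was g3536 to g3543. The runs of 4 were g2427 to g2430, g9072 to g9075, g10885 to g10888 and g10961 to g10964, and the runs of 3 were g2435 to g2437, g3138 to g3140, g5831 to g5833, g11147 to g11149, g12988 to g12990 and g21129 to g21131. Just inside both limits of the rule was g17216, with a mean of 5.42 CPM in control adults, 0.232 CPM in control larvae and a ratio of 16.6. Just outside the level limit was g5830, with 4.66 CPM in control adults, 0.0902 CPM in control larvae and a ratio of 25.0. Just outside the ratio limit was g5842, with 111 CPM in control adults, 6.95 CPM in control larvae and a ratio of 15.7.

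The order of rows in the table is not that of the gene numbers, and it keeps the members of a run together. All 65 pairs of members with consecutive numbers stood in adjacent rows, where 87.2% of the 21100 such pairs among all genes did, and 20 runs were listed in ascending and 25 in descending order. Some runs that are far apart in number were next to each other by row. The rows of g9075 to g9072 were followed directly by those of g5896 and g5895, and the rows of g3543 to g3536 directly by those of g9697 and g9696, with g9694 and g9693 after the 3 listed transcripts of g9695. What sets the row order is not given in the sources used here.

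Between the runs g2427 to g2430 and g2435 to g2437 lay 4 genes that were not candidates. The transcript g2433 had 13.5 ± 16.7 CPM in on-Tc adults and 8.23 ± 5.18 CPM in post-Tc adults, against 482 ± 285 CPM in on-Tc larvae and 391 ± 343 CPM in post-Tc larvae (SD, n = 3 each). Its neighbour g2432 had 75.7 ± 64.5 and 55.7 ± 33.2 CPM in on-Tc and post-Tc adults, against 629 ± 229 and 678 ± 162 CPM in on-Tc and post-Tc larvae (SD, n = 3 each). The mean of g2431 was also higher in larvae in both states, at 137 ± 130 and 165 ± 122 CPM in on-Tc and post-Tc adults, against 420 ± 261 and 284 ± 199 CPM in on-Tc and post-Tc larvae (SD, n = 3 each). The mean of g2434 was higher in adults, at 34.6 ± 8.84 and 52.9 ± 11.1 CPM in on-Tc and post-Tc adults, against 15.7 ± 6.15 and 10.48 ± 7.28 CPM in on-Tc and post-Tc larvae (SD, n = 3 each), a smaller ratio than the rule asks for in controls. Thus 3 of the 4 had higher means in larvae, between 7 members that were higher in adults. For g2431 the post-Tc means lay within the spread of the libraries. So did its control means, at 371 ± 205.5 CPM in adults and 447 ± 369 CPM in larvae (SD, n = 3 each). Of the 87 listed genes that flank a run by number, 56 passed the filter on low counts, and 12 of those (21.4%) were higher in on-Tc adults than in on-Tc larvae by edgeR's quasi-likelihood test at a false discovery rate (FDR) of 0.05, while 7 were lower. For post-Tc the flanking genes gave 18 higher (32.1%) and 7 lower. In each state the 7 lower were 12.5% of the 56. Of all 11793 transcripts tested, 12.4% were higher on-Tc and 15.9% post-Tc, while 1487 were lower on-Tc and 1698 post-Tc.

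Counts from the members made up a sizeable part of every adult library and almost none of a larval one. In adults their share of the library's counts was 12.1, 15.5 and 13.8% in controls, 13.99, 12.4 and 8.78% on-Tc, and 17.2, 21.6 and 24.0% post-Tc. In larvae it was 0.0262, 0.0747 and 0.0272% in controls, 0.123, 0.0259 and 0.0306% on-Tc, and 0.0337, 0.0222 and 0.0318% post-Tc. In the 12 libraries that the rule did not use, the share was 16.3 percentage points higher in the 6 adult than in the 6 larval libraries (exact permutation test, two-sided, p = 0.00216, the smallest that 6 against 6 allows). In bulk RNA, fewer cells of a type and less RNA per cell cannot be told apart, and this holds for all differences below.

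**Figure D1:**
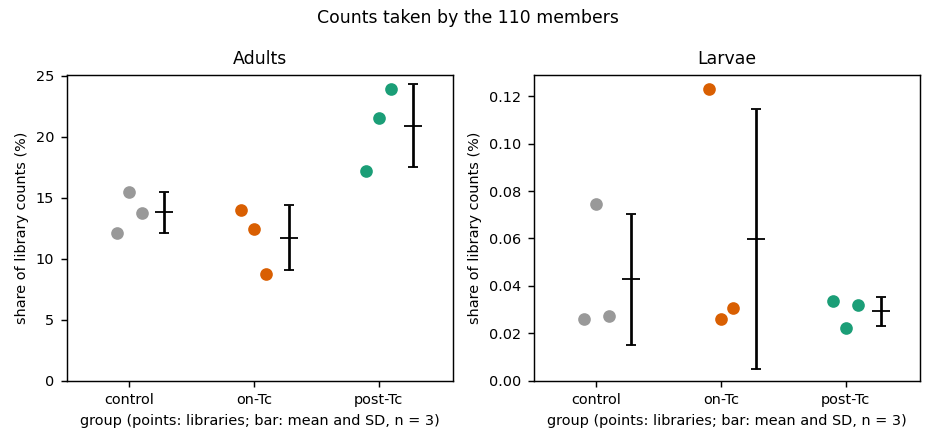
Share of each library's counts (%) taken by the 110 members, for adults (left) and larvae (right, on a scale of its own). Points are libraries and bars are the mean and SD of 3. The 3 post-Tc adults (17.2 to 24.0%) lay above the 3 on-Tc adults (8.78 to 13.99%), and larval shares stayed at or below 0.123%.

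In the post-Tc adults the members' share was the highest of the 3 adult groups. It averaged 13.8% ± 1.68 in controls, 11.7% ± 2.68 on-Tc and 20.9% ± 3.42 post-Tc (SD, n = 3 each). The difference between the on-Tc and the post-Tc mean was -9.18 percentage points, and the groups did not overlap, but with 3 libraries against 3 the exact two-sided permutation test cannot go below the p of 0.1 that it gave. Without the 8 members with the largest share the difference was -1.75 percentage points (an alternative added after the data were seen). These 8 were ranked in the same libraries and held 72.8% of the set's counts there. A smaller difference without them therefore does not show that the change was particular to them. The 243 candidates without a neighbour held 12.5, 12.9 and 10.1% of counts in on-Tc adults, against 13.6, 21.0 and 19.6% in post-Tc adults.

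The members were tested for stage in the 12 on-Tc and post-Tc libraries, which the rule had not used. Between on-Tc adults and on-Tc larvae, 87 of 110 members (79.1%) were higher in adults and 0 were lower (edgeR quasi-likelihood test, FDR under 0.05 over 11793 transcripts). Of all transcripts tested, 12.4% were higher. Between post-Tc adults and post-Tc larvae, 105 members (95.5%) were higher and 0 were lower, where 15.9% of all transcripts were higher. In both comparisons 84 members passed, 3 passed on-Tc alone, 21 passed post-Tc alone and 2 passed in neither, and a difference between the states was tested member by member below. All 110 members passed the filter on low counts, and since a filter on the 6 larval libraries alone would have kept 64, the others passed through the adult libraries, where they are high. These counts are therefore a description of the set.

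The size of the stage difference was large in most members. The median fitted log2 difference was 7.83 on-Tc (227-fold) and 8.77 post-Tc (435-fold), where the medians of all transcripts tested were -0.00 and -0.05. As a ratio of mean CPM with 0.1 CPM added, the scale of the rule, the median was smaller, at 88.7-fold on-Tc and 197-fold post-Tc. With the 4 members in each state that had 0 counts in all 3 larval libraries set at their lower bound (3 counts per larval library), the medians were 7.54 on-Tc and 8.57 post-Tc. The 243 candidates without a neighbour had smaller median log2 differences of 5.94 on-Tc and 6.59 post-Tc, and 200 and 222 of them were higher in adults. All 3 adult libraries lay above all 3 larval ones in 88 members on-Tc (80% of members), where 17.6% of all transcripts tested did so. Post-Tc this held for 91 members (82.7%), where 22.9% of all transcripts tested did so. In 77 members all 6 of these adult libraries lay above all 6 larval ones. The same count was not made over all transcripts, so the 77 only describe the set. The 74 members that were also found without adult control 3, an alternative added after the data were seen, included 66 called on-Tc and 72 called post-Tc.

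**Figure D2:**
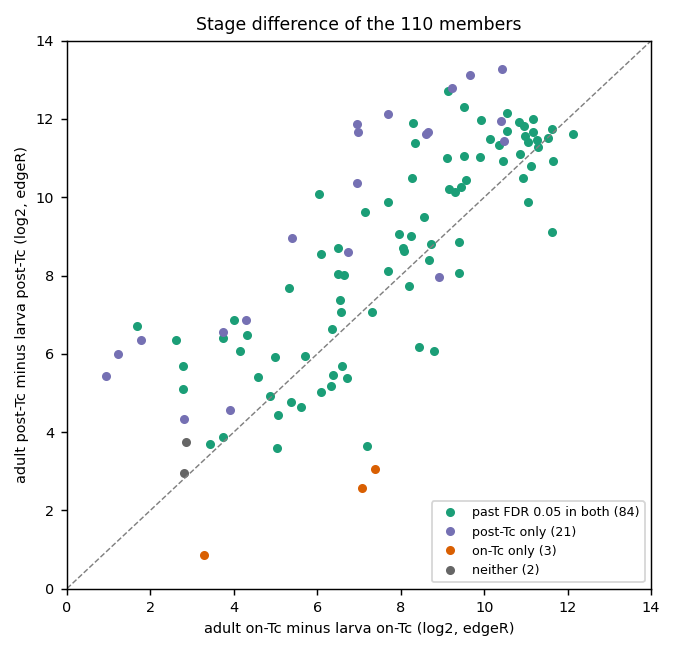
Fitted log2 difference between adults and larvae for the 110 members, on-Tc on the x axis and post-Tc on the y axis, coloured by which of the comparisons passed an FDR of 0.05 (edgeR). All members lie above 0 on both axes, 84 passed in both, 3 on-Tc alone, 21 post-Tc alone and 2 in neither.

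**Figure D3:**
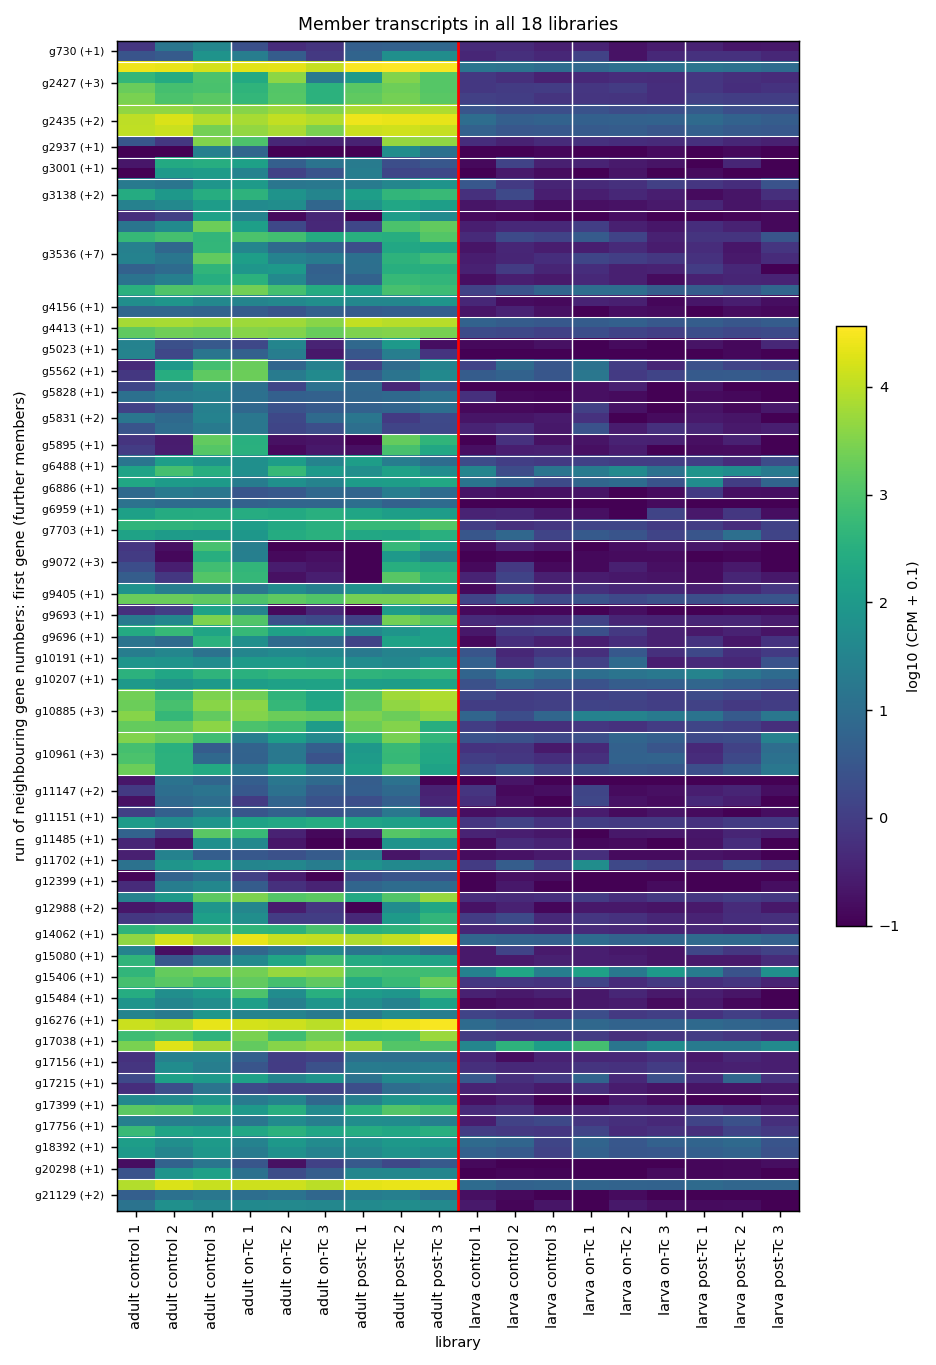
Level of each member (rows, grouped by run and marked with the run's first gene number and how many further members it has) in each of the 18 libraries (columns), as log10 of CPM plus 0.1. White lines part runs and groups and the red line parts adults from larvae. Larval columns are dark throughout apart from a few rows such as g17039, while several runs are bright in some adult libraries and dark in others.

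Among the members, 8 held 72.8% of the set's counts in the 6 on-Tc and post-Tc adult libraries. Counts are not divided by transcript length here, so shares between genes are not relative RNA levels. The largest share was that of g2427, which had 26077, 24145 and 15982 CPM in control adults, 20387, 21475 and 12062 CPM in on-Tc adults, and 33662, 36431 and 32736 CPM in post-Tc adults. Its larval libraries held 9.13 to 14.5 CPM in controls, 7.48 to 11.01 CPM on-Tc and 8.55 to 13.5 CPM post-Tc. No larval library came near any adult one, and the fitted log2 difference between adults and larvae was 10.98 ± 0.54 on-Tc and 11.57 ± 0.55 post-Tc (SE; edgeR FDR 5.5e-07 and 4.7e-07).

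Next came g16277, with 15874, 13926 and 9835 CPM in on-Tc adults and 21128, 26499 and 32907 CPM in post-Tc adults, against 5.66 to 7.45 CPM in on-Tc larvae and 5.58 to 7.69 CPM in post-Tc larvae. The third, g21129, had 14050.3, 13861 and 9604 CPM in on-Tc adults and 21268, 24376 and 25558 CPM in post-Tc adults, against 5.59 to 6.29 CPM in on-Tc larvae and 6.66 to 8.31 CPM in post-Tc larvae. In g2427, g16277 and g21129 each post-Tc adult library was above each on-Tc one. The members g2435, g2436 and g2437, which form a run, showed the same order. In on-Tc adults g2436 had 6739, 11487 and 8433 CPM, against 26151, 23841 and 22307 CPM in post-Tc adults. The level of g2437 was 4498, 7098 and 2788 CPM in on-Tc adults, against 12812, 14765 and 11742 CPM in post-Tc adults. The level of g2435 was 3595, 5419 and 3231 CPM in on-Tc adults, against 7284, 6990.3 and 7407 CPM in post-Tc adults.

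These differences between on-Tc and post-Tc adults did not pass the threshold. The fitted log2 difference was -1.50 for g2436 (SE 0.35; edgeR FDR 0.13), -1.51 for g2437 (SE 0.40; edgeR FDR 0.15), -1.10 for g16277 (SE 0.34; edgeR FDR 0.17) and -0.998 for g2427 (SE 0.36; edgeR FDR 0.21). The remaining members of the 8 were g4413, with 5477, 5908 and 3662 CPM in on-Tc adults against 11441, 9051 and 9381 CPM in post-Tc adults, and g14063. In g14063, unlike the other 7, on-Tc and post-Tc adults overlapped, with 23778, 12245 and 11391 CPM on-Tc and 7977, 11968 and 32154 CPM post-Tc. All 8 were higher in adults than in larvae in both states, with fitted log2 differences of 10.37 to 11.28 on-Tc and 11.27 to 11.997 post-Tc.

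Within the longest run the members differed in how low their level went in the adult libraries. The outer member g3543 and the inner member g3538 stayed at or above 164 CPM in all 9, while each of the other 6 was at or below 11.4 CPM in at least 1, a split made after the values were seen. The level of g3538 was 520.0, 838 and 450.0 CPM in control adults, 977, 748 and 265 CPM in on-Tc adults, and 329, 287 and 1206 CPM in post-Tc adults. The level of g3543 was 341, 1057 and 987 CPM in control adults, 2326, 833 and 261 CPM in on-Tc adults, and 164, 888 and 656 CPM in post-Tc adults. Both passed in each state, with fitted log2 differences between adults and larvae of 8.73 ± 1.35 on-Tc and 8.82 ± 1.36 post-Tc for g3538 (SE; edgeR FDR 0.0011 and 9.2e-04), and of 7.32 ± 1.05 and 7.08 ± 1.04 for g3543 (SE; edgeR FDR 7.1e-04 and 7.0e-04).

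In those 6 members some adult libraries of a group were high and others low. The level of g3537 was 14.6, 45.2 and 2057 CPM in control adults, 141, 1.54 and 0.333 CPM in on-Tc adults, and 1.41, 956 and 1711 CPM in post-Tc adults. The level of g3536 was 0.444, 0.998 and 151 CPM in control adults, 30.3, 0.0405 and 0.299 CPM in on-Tc adults, and 0, 116 and 43.9 CPM in post-Tc adults. In both, control 3, on-Tc 1, post-Tc 2 and post-Tc 3 were the high libraries. The same 4 libraries were the highest in g3539, at 34.5 to 481 CPM against 2.08 to 26.4 CPM in the other 5, and in g3540, at 133 to 1715 CPM against 11.4 to 29.4 CPM. They were also the highest in g3542, at 292 to 544 CPM against 5.38 to 41.0 CPM, while in g3541 on-Tc 2 (103 CPM) stood above on-Tc 1 (84.7 CPM). Between on-Tc adults and on-Tc larvae, g3536 (log2 8.62, SE 2.96, edgeR FDR 0.055) and g3537 (log2 6.95, SE 2.54, edgeR FDR 0.068) did not pass, and the other 4 did. Between post-Tc adults and post-Tc larvae all 8 members of the run passed. Reads of g3536 are uncertain, since g9693 had nearly the same CPM in each of the 9 adult libraries (within 1.11-fold), as near-identical copies that share reads could have.

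**Figure D4:**
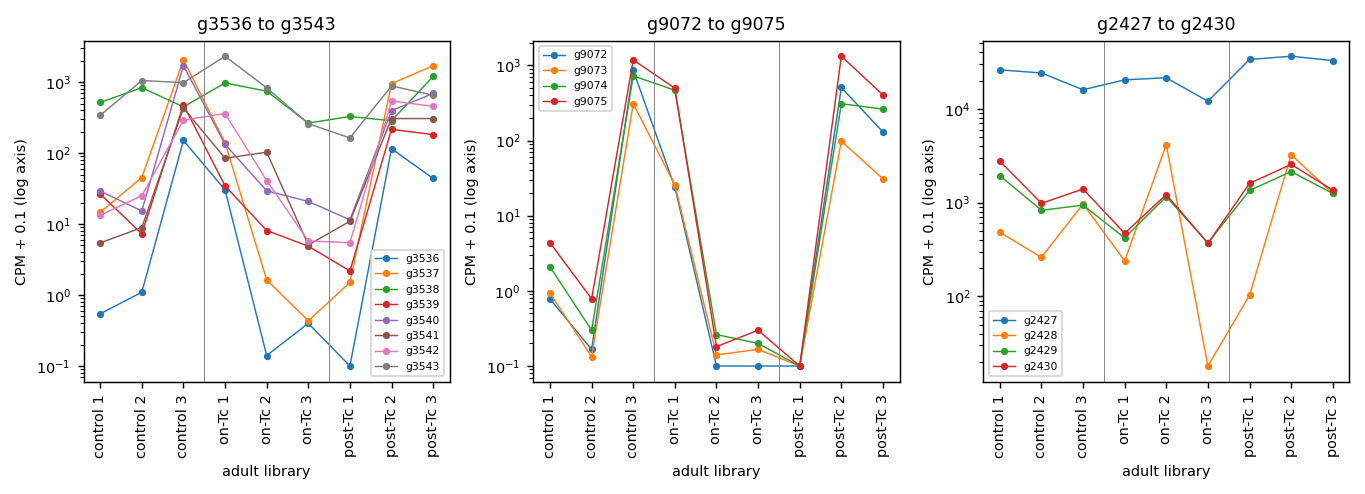
CPM plus 0.1 (log axis) of each member of 3 runs in the 9 adult libraries, with vertical lines between control, on-Tc and post-Tc. In g3536 to g3543 (left) most lines peak in control 3 and are high in on-Tc 1, post-Tc 2 and post-Tc 3, in g9072 to g9075 (middle) the other 5 libraries are at or below 4.27 CPM, and in g2427 to g2430 (right) g2427 stays at or above 12062 CPM while g2428 spans 17.9 to 4138 CPM.

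In the run g2427 to g2430, g2428 varied in the adults without regard to group. It had 481, 261 and 967 CPM in control adults, 239, 4138 and 17.9 CPM in on-Tc adults, and 102, 3242 and 1252 CPM in post-Tc adults, with 0.331 to 0.405 CPM in on-Tc larvae and 0.387 to 0.675 CPM in post-Tc larvae. Its fitted log2 stage difference was 12.12 ± 2.28 on-Tc and 11.60 ± 2.23 post-Tc (SE; edgeR FDR 0.0033 and 0.0035). The neighbours g2429 and g2430 followed each other within 1.49-fold over the 9 adult libraries, so that reads may have been split between them and each is uncertain. Those of g2429 were 420.0, 1157 and 372 CPM in on-Tc adults, against 1346, 2141 and 1250.5 CPM in post-Tc adults, and those of g2430 were 470.4, 1218 and 367 CPM in on-Tc adults, against 1602, 2554 and 1358 CPM in post-Tc adults. Both had higher levels in each post-Tc adult than in each on-Tc adult, without passing the test (log2 -1.34, SE 0.50, edgeR FDR 0.22 for g2429 and log2 -1.48, SE 0.48, edgeR FDR 0.18 for g2430).

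In the run g10885 to g10888 the first pair moved together over the adult libraries. The level of g10885 was 2422, 614 and 2949 CPM in control adults, 2323, 415 and 181 CPM in on-Tc adults, and 1339.5, 5807 and 7749.8 CPM in post-Tc adults. That of g10886 was 2078, 869 and 3723 CPM in control adults, 3889, 507 and 209 CPM in on-Tc adults, and 1479, 4284 and 6904 CPM in post-Tc adults. Both were lowest in on-Tc 3 and highest in post-Tc 3. The third member, g10887, had a narrower range within the treated groups, from 1805 to 3399 CPM in on-Tc adults and from 2037 to 3665 CPM in post-Tc adults. Its control adults ranged more widely, at 3594, 515 and 1645 CPM. The larval level of g10887 was higher than that of its neighbours, at 19.9 to 30.6 CPM on-Tc and 3.69 to 15.6 CPM post-Tc. The fourth, g10888, had 984, 672 and 121 CPM in on-Tc adults and 2081, 3384 and 306 CPM in post-Tc adults. All 4 passed the stage test in both states. The fitted log2 differences ran from 6.64 ± 0.65 (g10887) to 10.55 ± 1.33 (g10886) on-Tc and from 8.01 ± 0.69 (g10887) to 12.14 ± 1.40 (g10886) post-Tc (SE; edgeR FDR 3.2e-04 or less in all 8 tests).

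High and near-absent levels often stood side by side among adult libraries of the same group. Of the 110 members, 74 reached at least 1 CPM in all 9 adult libraries and 36 fell below 1 CPM in at least 1. The number of members below 1 CPM was 25, 15 and 1 in the control adults, 1, 20 and 21 in the on-Tc adults, and 14, 3 and 6 in the post-Tc adults. It therefore differed more between libraries of a group than between the groups. A block of 10 members (g2938, g3536, g5895, g5896, g9072, g9073, g9693, g11486, g12989 and g12990) fell below 1 CPM in exactly the same 5 libraries, namely control 1, control 2, on-Tc 2, on-Tc 3 and post-Tc 1. Another 4 (g2937, g9074, g9075 and g11485) did so in 4 of these 5, with control 1 the exception.

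The widest spread over libraries of a group was found in 4 members of these blocks. The level of g2937 was 3.15, 0.715 and 3148 CPM in control adults, 1001, 0.324 and 0.266 CPM in on-Tc adults, and 0.235, 4908 and 4277 CPM in post-Tc adults. The level of g5895 was 0.580, 0.166 and 1674 CPM in control adults, 320.1, 0.0811 and 0.0998 CPM in on-Tc adults, and 0, 1775 and 434 CPM in post-Tc adults. The level of g9075 was 4.27, 0.682 and 1182 CPM in control adults, 496, 0.0811 and 0.200 CPM in on-Tc adults, and 0, 1322 and 404 CPM in post-Tc adults. In these 3 members each of the adult groups had at least 1 library at 320.1 CPM or more and at least 1 at 0.715 CPM or less. The fourth, g5896, had 1241 CPM in control 3, 334 CPM in on-Tc 1 and 877 and 218 CPM in post-Tc 2 and 3, with 0.0405 to 0.889 CPM in the other 5. In on-Tc and post-Tc larvae these 4 members had at most 0.530 CPM.

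With such spread the stage test did not pass on-Tc for these 4 members and passed post-Tc. The fitted log2 differences were 9.65 ± 3.43 on-Tc and 13.12 ± 3.86 post-Tc for g2937 (SE; edgeR FDR 0.062 and 0.026) and 9.23 ± 3.47 and 12.80 ± 3.93 for g5895 (SE; edgeR FDR 0.075 and 0.031). Without on-Tc 1, the only on-Tc adult with high levels, the on-Tc differences of both members turned negative, at -0.47 for g2937 and -0.92 for g5895. In 4 runs no member passed on-Tc, namely g2937 to g2938, g5895 to g5896, g9072 to g9075 and g11702 to g11703. Of the 74 members with at least 1 CPM in all adult libraries 68 passed on-Tc and 72 post-Tc, and of the other 36 members 19 passed on-Tc and 33 post-Tc. That split was made partly on the tested adult libraries, which favours passing in the 74, so nothing is concluded from it. All members of a run passed in 32 of the 45 runs on-Tc and in 41 post-Tc.

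The choice of members leaned on 1 control library. In 24 members a single library held over 90% of the summed CPM of the 3 adult controls, and in 22 of these it was adult control 3, the library with the smallest total. Without adult control 3 the rule gave 82 members, 74 of them among the 110. Of the 9 adult libraries, control 3 was the highest in 33 members, post-Tc 3 in 22 and post-Tc 2 in 13, and on-Tc 3 was the lowest in 22, control 1 in 21 and post-Tc 1 in 19. The ratio between the highest and the lowest library of a group (after 0.1 CPM was added) had a median of 4.63 over the members in on-Tc adults and 4.12 in post-Tc adults. Over the 6861 first transcripts with at least 5 CPM in these adults the medians were 1.46 and 1.44, and over the 243 candidates without a neighbour they were 3.05 and 2.51. The members and these candidates were held to 5 CPM in the adult controls only, so the sets differ in level. A ratio of at least 10 was found in 35 of the 110 members on-Tc and in 37 post-Tc. It was found in 188 and 189 of the 6861 first transcripts, and in 45 and 47 of the 243 candidates without a neighbour.

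Neighbours in a run did not always have their highest and lowest levels in the same libraries. Of the 65 pairs of consecutive members, 60 reached 5 CPM on average in the on-Tc and post-Tc adults, and of these 26 (43.3%) had their highest level in the same 1 of the 6 libraries and 35 (58.3%) their lowest. Over 3680 pairs of consecutive genes at the same level the shares were 29.5% and 29.3%, and the difference from these shares was not tested. All members were at or above 1 CPM throughout the adults in 25 runs, all members had a library below it in 11 runs, and 9 runs were mixed.

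Between on-Tc and post-Tc adults, 1 member passed. The level of g17157 was 0.638, 50.0 and 24.0 CPM in control adults, 2.80, 0.892 and 2.26 CPM in on-Tc adults, and 20.5, 19.3 and 22.9 CPM in post-Tc adults. All 3 on-Tc libraries lay below all 3 post-Tc ones, and 1 of the controls was below all of these. The fitted log2 difference was -3.48 ± 0.37 (SE; edgeR FDR 0.018), and 0.00848% of all transcripts tested were called lower. Its run partner g17156 had 4.94, 0.933 and 1.13 CPM in on-Tc adults, against 10.7, 10.6 and 10.3 CPM in post-Tc adults, and did not pass (log2 -2.24, edgeR FDR 0.14). The call of g17157 was lost without adult on-Tc 3, without larva post-Tc 2 and without any of the 3 post-Tc adults. It was also lost with the replicate number as a block, with all 18 libraries, with only the 6 libraries compared and with a log2 fold threshold of 1. In all, 16 of 25 alternatives kept it, with FDRs over the 25 from 4.4e-17 to 0.13.

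Below the threshold the members leaned towards lower levels on-Tc. Blocks of members were high and low in the same libraries, so members are not independent of each other. The counts in this paragraph therefore only describe the set. Their fitted log2 difference between on-Tc and post-Tc adults was negative in 82 and positive in 28, with a median of -0.999, where the median of all transcripts tested was -0.06. An unadjusted p under 0.05 was found in 32 members (28 lower, 4 higher), which is 29.1% of them. This compares with 19.8% of the candidates without a neighbour and 17.5% of all transcripts. In 26 members (23.6%) all 3 on-Tc adults were below all 3 post-Tc adults, where 13.4% of all transcripts were, and in 4 members (3.64%) all 3 were above, where 14.1% of all transcripts were. Of the 45 runs, 27 had only negative differences, 7 only positive ones and 11 both. Over the 74 members also found without adult control 3 the difference was negative in 56, with a median of -0.62. The ratio of on-Tc to post-Tc means (after 0.1 CPM was added) had a median of 0.526 over the members, 0.741 over the candidates without a neighbour and 1.11 over the 6861 first transcripts above. DESeq2, which called 302 transcripts higher and 373 lower in all, called 19 members, all lower on-Tc.

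The 4 members whose on-Tc adults all lay above the post-Tc adults were g6960, g9696, g10191 and g15406, which are named after their values were seen. The largest of these differences was that of g15406, with 2417, 4963 and 4164 CPM in on-Tc adults against 830.4, 721 and 691 CPM in post-Tc adults. Its fitted log2 difference of 2.30 did not pass (edgeR FDR 0.26). Larger positive differences were fitted for g5562 and g5563 (log2 5.01 to 5.56), whose groups overlapped and which did not pass. In on-Tc adults g5562 had 1905, 6.33 and 26.4 CPM, against 1.04, 8.20 and 28.5 CPM in post-Tc adults. In the opposite direction, the run g10961 to g10964 was low in every on-Tc adult. In on-Tc adults g10963 had 5.59, 16.4 and 2.53 CPM, against 112, 542 and 205 CPM in post-Tc adults. The controls of g10963 had 978, 367 and 7.41 CPM, so that control 3 was among its low libraries, as in g10962 (4.02 CPM). In g10961 and g10964 control 3 had 724 and 238 CPM, above every on-Tc adult. The log2 difference between on-Tc and post-Tc adults was -5.22 for g10963 (edgeR FDR 0.15).

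Set against the adult controls, which the rule chose to be high, the ratio of means had a median of 0.575 on-Tc (78 of 110 members below control) and 0.995 post-Tc (55 below). These values share the control libraries with each other and with the rule, and no test was made.

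The members stood low in all larval groups, at a level that in the most abundant ones went with the adult level. Of the 110 members, 57 were below 1 CPM in all 6 on-Tc and post-Tc larval libraries. In 2 members these libraries had 0 counts. The first, g11147, had 4.41, 16.3 and 8.45 CPM in on-Tc adults and 4.23, 12.3 and 0 CPM in post-Tc adults, at least 124-fold higher on-Tc and 75.1-fold higher post-Tc than a floor of 3 counts per larval library. The second was g12399, at 1.04, 0.162 and 0 CPM in on-Tc adults and 1.81, 2.62 and 2.42 CPM in post-Tc adults, at least 5.10-fold and 31.1-fold higher than that floor. Floors cover counting error only. Both had counts in a control larva, so that 0 members were without a count in all 9 larval libraries.

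Of the 23 members with a mean of at least 1000 CPM over the 6 on-Tc and post-Tc adults, 19 had a larval mean between 0.02 and 0.07% of the adult mean, with a median of 0.0419%. In g2435, for example, on-Tc and post-Tc larvae had 1.85 to 3.69 CPM, against 3231 to 7407 CPM in the adults. The widest larval range among the 19, relative to its lowest value, was that of g15407, with 0.258 to 1.29 CPM in larvae, against 266 to 2053 CPM in the adults. The 4 other members at that level, named after their values were seen, were g17039 (5.02%), g15406 (2.54%), g10887 (0.698%) and g9406 (0.114%). Over the other 87 members the larval mean was 0 to 24.4% of the adult mean, with a median of 0.417%. Whether larval counts at this level came from larval RNA was not tested.

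**Figure D5:**
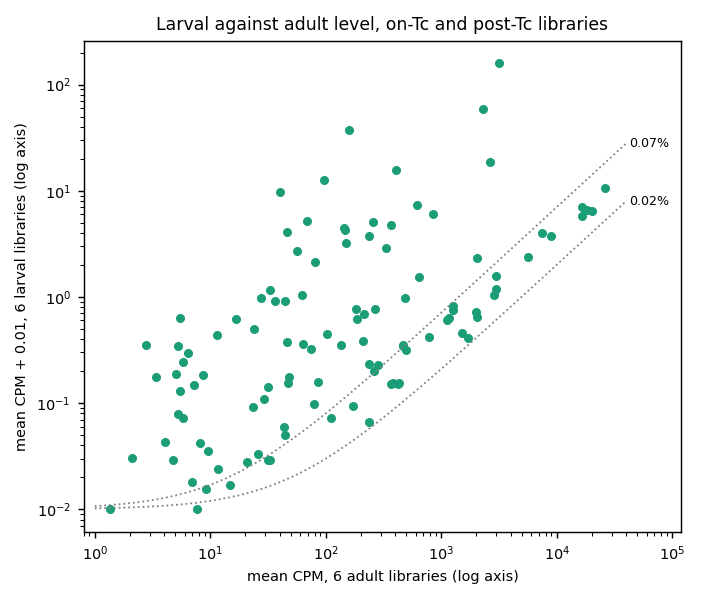
Mean larval CPM plus 0.01 (y axis, log) against mean adult CPM (x axis, log) of the 110 members over the 6 on-Tc and post-Tc libraries of each stage. Dotted lines mark a larval level of 0.02 and 0.07% of the adult level, between which lie 19 of the 23 members at or above 1000 CPM in adults.

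A pair of members set the larval share of the whole set in some libraries. In larvae g17039 had 35.5, 395 and 124 CPM in controls, 809, 14.5 and 50.2 CPM on-Tc, and 19.3, 18.9 and 45.6 CPM post-Tc. In adults it had 2833, 19785 and 6618 CPM in controls, 1666, 3541 and 5417 CPM on-Tc, and 6141, 1166 and 1146 CPM post-Tc, so that larva on-Tc 1 came near the adult range. The larval level of g15406 was 29.5, 192 and 23.7 CPM in controls, 149, 17.2 and 97.4 CPM on-Tc, and 21.0, 2.58 and 62.8 CPM post-Tc. Without this pair the members' share of larval counts was 0.0124 to 0.0297% in all 9 larval libraries, in place of 0.0222 to 0.123%. The library larva on-Tc 1 was also the highest larva in g11703, at 52.3 CPM against 1.53 and 1.11 CPM in the other on-Tc larvae, which left that member with the lowest fitted stage difference on-Tc (log2 0.94, edgeR FDR 0.57), while post-Tc it passed (log2 5.42, edgeR FDR 0.012).

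The 2 members that passed in neither state were g6886 and g11149. The level of g6886 was 21.2, 61.6 and 30.8 CPM in on-Tc adults and 121, 122 and 219.9 CPM in post-Tc adults, against 6.58, 8.50 and 2.69 CPM in on-Tc larvae and 50.3, 0.900 and 6.48 CPM in post-Tc larvae. Adults and larvae did not overlap in either state, and the post-Tc larvae differed the most among themselves (log2 2.79 ± 1.11 on-Tc and 2.94 ± 1.12 post-Tc, SE; edgeR FDR 0.090 and 0.068). The level of g11149 was 0.815, 6.24 and 2.40 CPM in on-Tc adults and 2.08, 4.75 and 0.296 CPM in post-Tc adults, against 1.39, 0.0852 and 0.0484 CPM in on-Tc larvae and 0.337, 0.187 and 0 CPM in post-Tc larvae. Here the stages overlapped in both states (log2 2.85 ± 1.41 on-Tc and 3.73 ± 1.49 post-Tc, SE; edgeR FDR 0.17 and 0.080). The 3 members that passed on-Tc alone were g5562, g5563 and g6489. For g6489 the post-Tc stages overlapped, at 54.7, 153 and 51.0 CPM in adults against 75.2, 50.8 and 19.7 CPM in larvae.

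Between on-Tc and post-Tc larvae edgeR called 0 of 110 members and 0 of all transcripts tested (0%; smallest FDR 0.595). An unadjusted p under 0.05 was found in 7 members (6.36%) and in 939 of all transcripts tested (7.96%), so the members did not stand out. DESeq2 called 2 members, with 31 transcripts higher and 44 lower in all, and limma-voom called 0 members. The stage difference itself differed between on-Tc and post-Tc in 1 member by edgeR's interaction test, g17157, where 0.00848% of all transcripts tested were called in that direction. The median of this interaction over the members was -0.87 on the log2 scale, and -0.00 over all transcripts tested. For the other 109 members a difference between the states was not shown.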

How the data were processed

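The deposited table holds counts per predicted transcript for 18 libraries, made by the authors from poly(A) RNA of midguts (Zymo Direct-zol isolation and NEBNext kits, per the labels' protocols). The submitters' processing notes name featureCounts, STAR, Trimmomatic and DESeq2. For versions, genome build, annotation, strand setting and the counting of read pairs, the sources used here give nothing. Of the counts from 1 to 20, 63.0 to 71.3% per library were even, so halved counts were tried. Columns were matched to samples by name, and all were used.

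CPM used column totals. The deposited counts of the 12 on-Tc and post-Tc libraries were fitted together in edgeR 4.0.16 (R 4.3.3) with a mean per group: filterByExpr (minimum count 10, total 15), TMM scaling, the quasi-likelihood F-test, and Benjamini-Hochberg adjustment over 11793 transcripts. SEs were derived from the F statistic. The script was tested on simulated data. Control libraries stayed out of the fit because the rule had used them. Floors are 3 counts per library and cover counting error only. Alternatives included DESeq2 1.42.0, limma-voom (limma 3.58.1), other scalings and filters, and leaving out each library. Genes were named by a rule: members of the 3 longest runs (of runs tied in length, those with the larger share of adult on-Tc and post-Tc counts), the 8 with the largest share of counts, those called on-Tc against post-Tc, those passing in neither stage test, those nearest the limits and the 4 with the widest spread. Other genes named in the text were chosen after their values were seen. The members, lists and tests were chosen with earlier results of these data known.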

Additional observations from a re-analysis of the deposited data

Results flagged for a closer look

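A single member differed between treatment states in its stage difference. For g17157 the fitted log2 difference between adults and larvae was 1.69 ± 0.36 on-Tc and 6.71 ± 0.44 post-Tc (SE; edgeR FDR 0.0066 and 3.9e-06), and the interaction was -5.02 (SE 0.53; edgeR FDR 0.017). The transcript had 2.80, 0.892 and 2.26 CPM in on-Tc adults against 0.596, 0.511 and 0.895 CPM in on-Tc larvae, and 20.5, 19.3 and 22.9 CPM in post-Tc adults against 0.193, 0.204 and 0.194 CPM in post-Tc larvae. The adults were lower on-Tc than post-Tc, and the 3 on-Tc larvae were above the 3 post-Tc larvae. The post-Tc libraries of each stage were close to one another, while the control adults of the same transcript ran from 0.638 to 50.0 CPM. The post-Tc larval levels rest on few counts, since 3 counts are 0.0723, 0.0510 and 0.0968 CPM in these libraries. The post-Tc stage difference and the interaction depend on these levels. In on-Tc 2 the adult level was within the range of the on-Tc larvae. The interaction was called in 0 members without adult on-Tc 3, larva on-Tc 1, larva on-Tc 3 or any post-Tc library. It stayed past an FDR of 0.05 in 12 of 24 alternatives, with FDRs from 1.2e-12 to 0.33 and log2 values from -5.37 to -4.70.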

How the results depend on the processing

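The stage counts kept their direction in each alternative run. Members higher in on-Tc adults numbered 73 (limma-voom) to 100 (DESeq2) across settings and 70 to 98 with a library left out, and members higher in post-Tc adults 76 to 105 across settings and 81 to 105 with a library left out. Counts over all transcripts moved too. On-Tc, limma-voom called 1434 higher and DESeq2 1822, with 962 to 1614 when a library was left out. Post-Tc, limma-voom called 1857 higher and DESeq2 2271, with 1278 to 1919 when a library was left out. The single call between on-Tc and post-Tc adults was not stable. DESeq2 called 19 members (302 transcripts higher and 373 lower in all) and limma-voom 2 (6 higher and 11 lower in all). With a log2 fold threshold of 1, with all 18 libraries or with only the 6 libraries compared, 0 members were called. With a library left out the count was 0 to 2, being 2 without adult on-Tc 1 and 0 without adult on-Tc 3, larva post-Tc 2 or any post-Tc adult. The interaction was called in 3 members by DESeq2 and in 0 by limma-voom or with all 18 libraries, and in 0 to 2 with a library left out (2 without adult on-Tc 1, and 0 without adult on-Tc 3, larva on-Tc 1, larva on-Tc 3 or any post-Tc library). Larval on-Tc against post-Tc gave 2 members by DESeq2, which left 4 members without an adjusted p. Of all transcripts DESeq2 called 61 higher and 100 lower in the interaction, and 31 higher and 44 lower between on-Tc and post-Tc larvae. Of same-numbered pairs of libraries from different groups, 1 of 18 correlated above 0.1 in their deviations from group means. This check cannot tell whether the samples were paired. With the replicate number as a block 85 members were called on-Tc, 96 post-Tc, 0 between on-Tc and post-Tc adults and 0 in the interaction. The rule gave 71 members with 1 CPM added in place of 0.1, and 82 to 120 with a control library left out. Added after the data were seen, the share difference between on-Tc and post-Tc adults was -1.75 percentage points without the 8 members of largest share. Single members not called changed sign with a library left out. The stage difference on-Tc ran from -0.92 to 9.81 for g5895 and from -0.47 to 10.23 for g2937. Between on-Tc and post-Tc adults the log2 difference ran from -0.64 to 0.57 for g14063, from -0.29 to 1.07 for g3538 (-0.07 without on-Tc 2, -0.25 without post-Tc 1 or post-Tc 2), from -0.13 to 1.42 for g3543, from -3.74 to 1.12 for g2428 (0.38 and 0.45 without on-Tc 1 and on-Tc 3) and from -0.76 to 1.47 for g11149 (-0.20 without post-Tc 3). Causes were not tested. Groups of 3 against 3 allow no exact p below 0.1.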
